A study of Mus musculus with 8 samples.

Results

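The genes described here encode the ligands, receptors, secreted and membrane antagonists and core effectors of WNT signalling. They were chosen by symbol alone: the Wnt, Fzd, Sfrp, Dkk and Axin gene families, together with Lrp5, Lrp6, Ctnnb1, Apc, Lef1, Tcf7, Wif1, Rspo1, Rspo2, Rspo3, Znrf3, Rnf43, Apcdd1, Wls and Porcn. Mouse RefSeq holds 54 genes of this kind, and 53 of them were measured among 18193 genes in all. Tcf7 was not analysed here. By role, 19 were WNT ligands, 2 process ligands, 3 were R-spondins, 12 were receptors, 10 were extracellular antagonists, 2 were receptor ubiquitin ligases, 3 belong to the destruction complex and 2 were beta-catenin and a DNA-binding partner.

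WNT ligands are lipid-modified secreted proteins that bring a Frizzled receptor together with the co-receptor LRP5 or LRP6. In the branch that runs through beta-catenin, ligand binding stops a destruction complex, built on Axin and APC, from degrading beta-catenin, which then enters the nucleus and acts with LEF and TCF factors. In the hair follicle this pathway is known for starting the growth phase of the hair cycle, and resting follicle stem cells are known for holding secreted WNT inhibitors.

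Skin cells of mice positive for K15-GFP and α6-integrin were separated by the surface protein CD34. The CD34-negative sort is labelled hair germ, the cell cluster under the bulge that starts a new hair, and the CD34-positive sort is labelled bulge, where long-lived stem cells reside. The 4 groups were Runx1 iTG hair germ, Runx1 iTG bulge, WT hair germ and WT bulge, with 2 arrays each. Runx1 iTG mice are labelled as carrying a Tet-on Runx1 transgene. The driver of the transgene, and how many mice entered each sample, are not given in the sources used here. Mice of both genotypes alike were given doxycycline in the food (1 g per kg) during 1 day, per the labels to repress H2BGFP. All were in telogen, the resting phase, at postnatal day 20, except replicate 2 of both Runx1 iTG groups, which is labelled postnatal day 21. The study set transgenic against WT cells to ask how raised Runx1 affects resting follicle stem cells.

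Signals are array intensities after scaling to a common 75th percentile, and 31.1 is taken as the background limit, the level under which 95% of the signals from bacterial control probe sets lay. Deposited median intensities lay between 101.7 and 162 on the 8 arrays. Runx1 itself stood at 12107 and 12882 on the Runx1 iTG hair germ and 19461 and 13699 on the Runx1 iTG bulge arrays, against 495 and 489 on the WT hair germ and 658 and 904 on the WT bulge arrays. Cd34, the gene behind the sort, was between 2.42 and 53.2 in the hair germ sort and between 4902 and 11208 in the bulge sort. In each group replicate 1 had the higher Y-linked signals and replicate 2 the higher Xist signal, between 9973 and 11103 against 30.2 to 72.5, so that replicate number goes with the sex of the mice.

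The markers went against the hair germ label. Of 10 hair germ markers, 8 fell and 0 rose in the hair germ sort relative to the bulge sort by limma (adjusted p under 0.05 over all genes), and their summed signal was 2915 to 5174 in the hair germ sort against 10500 to 17245 in the bulge sort. Gli1, a Hedgehog target, differed by −4.18 and Msx2, a homeobox gene, by −3.44 on the log2 scale. Of these 10 markers, Lef1 and Wif1 are themselves WNT genes, and of the other 8, 6 fell. Of 8 sebaceous and upper follicle markers, 7 rose and Lgr6 fell, with a summed signal of 61604 to 69127 in the hair germ sort against 16873 to 22913 in the bulge sort. Krt79, a keratin of the upper follicle, differed by 3.20, and Mc5r, a melanocortin receptor of sebaceous cells, by 5.22. Of 10 bulge markers, 9 fell in the hair germ sort, with sums of 27734 to 47583 there and 108635 to 131583 in the bulge sort. The populations are therefore called by their sort below, and the CD34-negative one is given no other cell type name.

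Markers of some other cells moved with the sort as well, where 9.11% of all genes fell and 9.17% rose. Fibroblast and dermal papilla markers summed to 407 to 938 in the hair germ sort and 5092 to 9641 in the bulge sort. Most of the bulge sum was the collagen genes Col1a1 (3217 to 7741) and Col1a2 (911 to 2459). Both were among the 4 of 12 that were lower in the hair germ sort, and 3 of 12 had a positive difference. Pdgfra and Dcn overlapped, at 43.4 to 81.9 and 16.1 to 56.9 in the hair germ sort and 5.42 to 50.9 and 37 to 63.2 in the bulge sort. Lum and Sox2 lay below background on every array. Suprabasal keratinocyte markers summed to 19361 to 32398 in the hair germ sort and 43747 to 66216 in the bulge sort, with 6 of 6 lower in the hair germ sort. Melanocyte markers summed to 487 to 1197 in the hair germ sort and 2178 to 4574 in the bulge sort, with 2 of 8 lower in the hair germ sort (Mitf and Dct). Most of that sum was Mitf, a transcription factor of pigment cells, and without it the other 7 summed to 112.9 to 328 in the hair germ sort and 194 to 544 in the bulge sort. Of the 7, Sox10 and Kit, known in the same cells, had overlapping signals, at 55 to 111 and 5.45 to 43.8 in the hair germ sort and 14.9 to 97.6 and 4.51 to 17.5 in the bulge sort. Immune markers summed to 557 to 1043 in the hair germ sort and 672 to 1546 in the bulge sort, with 1 of 8 lower in the hair germ sort and Ptprc below background on every array, so that the sums overlapped. Endothelial and pericyte markers summed to 119.7 to 216 in the hair germ sort and 163 to 269 in the bulge sort, also overlapping, with 0 of 6 past the threshold in limma, where 0 also reached an unadjusted p under 0.05. The part of these cells in the WNT values below was not tested, and in bulk samples fewer cells of a type and less RNA per cell cannot be told apart.

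**Figure D1:**
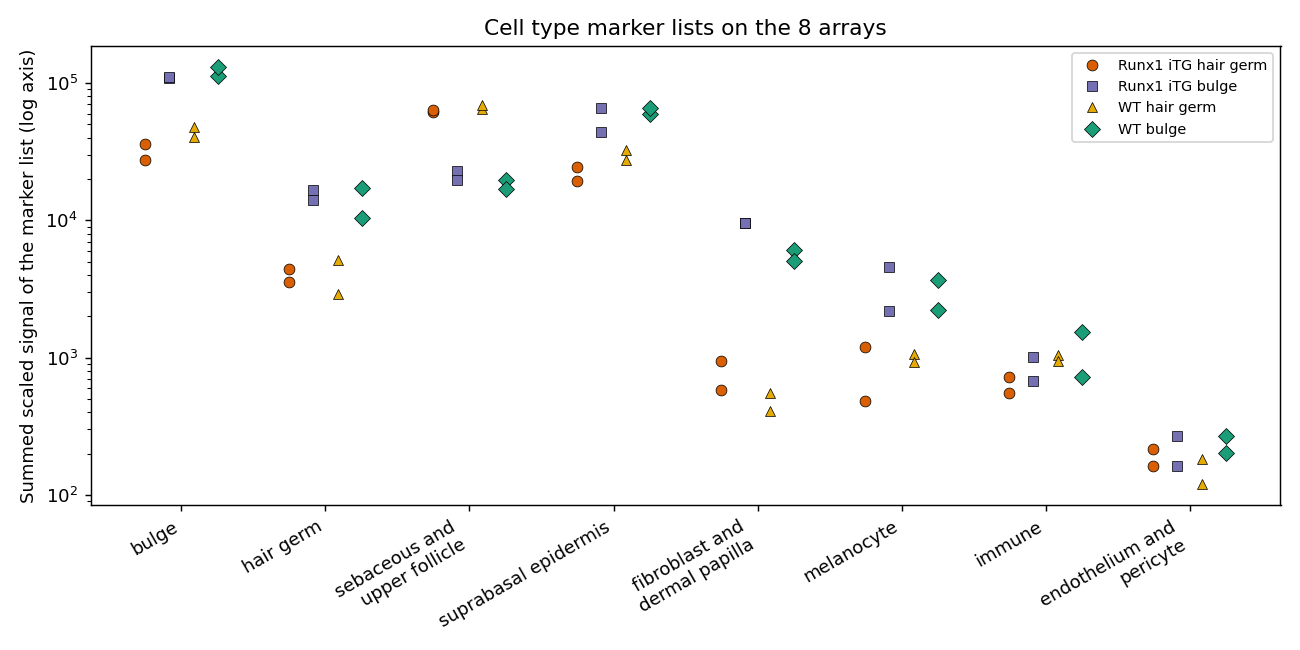
Summed scaled signal of each marker list (log axis) on the 8 arrays, one point per array, for Runx1 iTG hair germ, Runx1 iTG bulge, WT hair germ and WT bulge. The hair germ marker list sits at 2915 to 5174 in the hair germ sort and at 10500 to 17245 in the bulge sort, and the sebaceous and upper follicle list lies the other way round, at 61604 to 69127 in the hair germ sort and 16873 to 22913 in the bulge sort.

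Of the 53 WNT genes, 35 lay above background on all 8 arrays, 13 on some, and 5 on none (Wnt1, Wnt2, Sfrp2, Dkk1 and Dkk2). All 12 receptors were above background on every array, as were 10 of the 19 ligands, 4 of the 10 extracellular antagonists and 0 of the 3 R-spondins. Both ligand-processing genes, both receptor ubiquitin ligases, the 3 destruction complex genes, Ctnnb1 and Lef1 were above it on every array too.

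The hair germ sort had far lower signals of Sfrp1, Dkk3, Fzd2, Fzd9 and Wnt7b than the bulge sort. Sfrp1 and Dkk3 encode secreted antagonists, Fzd2 and Fzd9 Frizzled receptors and Wnt7b a ligand, and each passed the threshold in both genotypes. The Frizzled receptor gene Fzd1 also passed in both, with a smaller log2 difference (−1.39 in Runx1 iTG and −1.63 in WT mice). Within a genotype, the calls of Fzd1 in both, and of Wnt7b in Runx1 iTG mice, were lost without some single arrays. With the genotypes averaged, 16 of the 53 WNT genes passed the threshold. Of these, 13 fell (24.5%), against 9.11% of all genes, and 3 rose (5.66%), against 9.17% of all genes. The median log2 difference of the 53 was −0.30, or −0.17 with genes below background set to their bound, against −0.09 over all genes. Without overlap between the 4 hair germ and the 4 bulge arrays were 10 lower and 3 higher WNT genes, 13 of 53, against 22.4% of all genes. All 13 of these also passed the threshold.

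**Figure D2:**
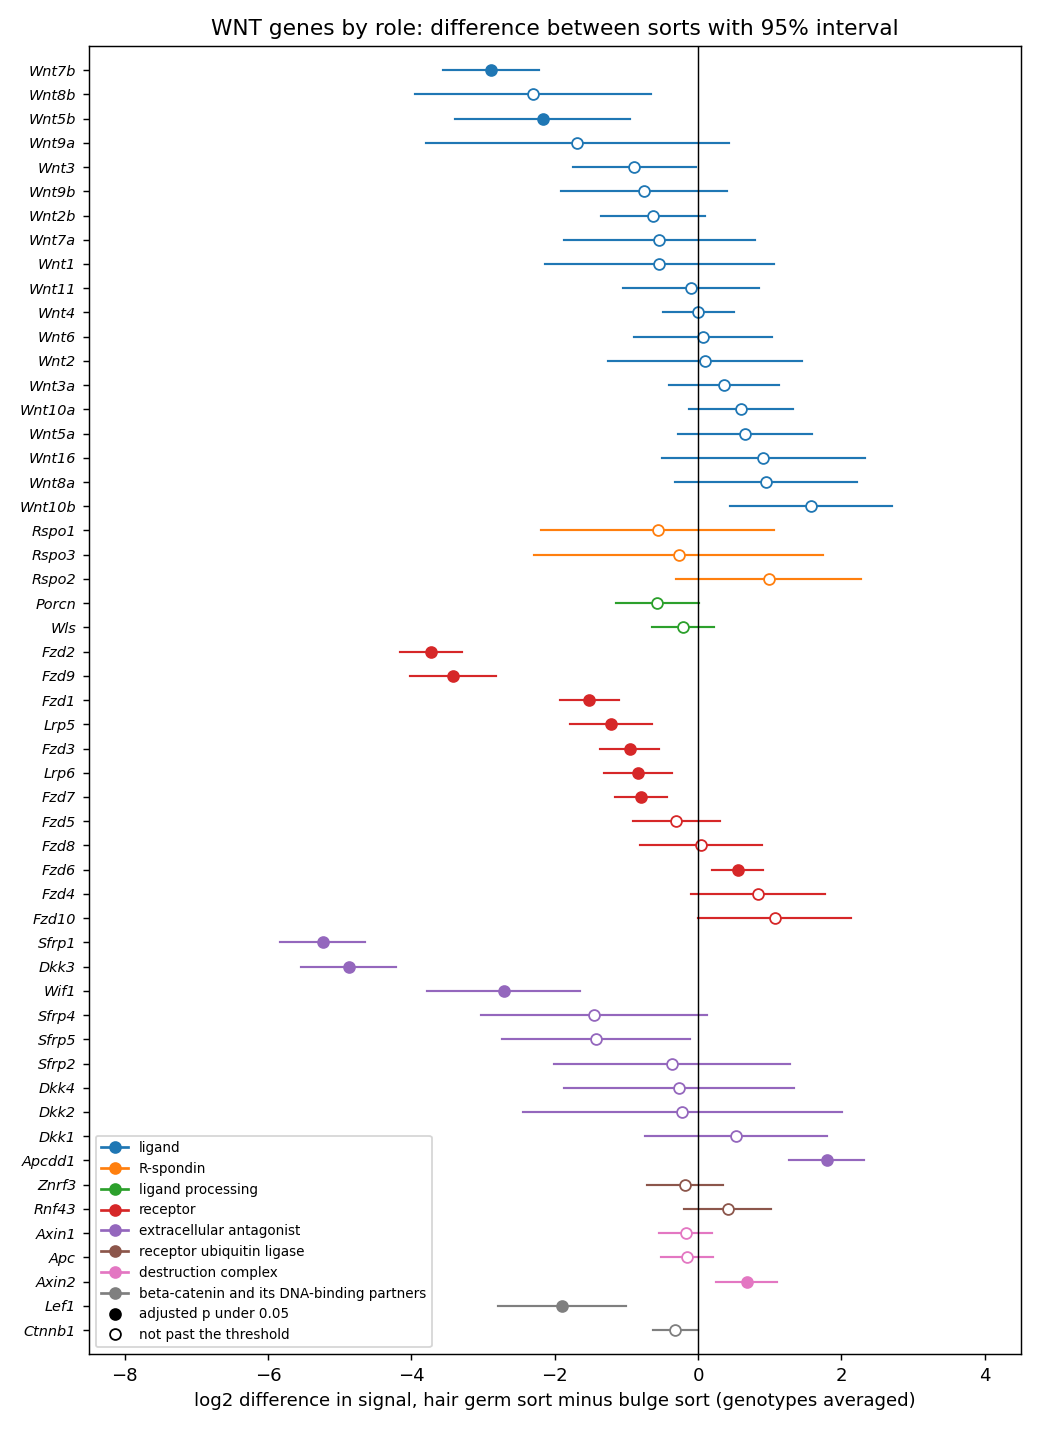
Log2 difference in signal of all 53 WNT genes between the hair germ sort and the bulge sort, genotypes averaged, ordered by role; bars are 95% intervals and filled points passed the adjusted p of 0.05. The filled points lie mostly among receptors (8 of 12) and extracellular antagonists (4 of 10), with Sfrp1 lowest at −5.24 and Apcdd1 highest at 1.79 among them. The 7 genes below background in both sorts and the 6 below it in 1 sort are plotted at their fitted values, which are no measured differences.

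Among the antagonists, Sfrp1, Dkk3 and Wif1 fell and Apcdd1 rose. Sfrp1 encodes a secreted Frizzled-related protein that binds WNTs. Its signal was 172 and 273 on the Runx1 iTG and 489.7 and 215 on the WT hair germ arrays, against 8438 and 9494 on the Runx1 iTG and 12448 and 10067 on the WT bulge arrays. Every hair germ array was far below every bulge array, a 37.7-fold lower mean (log2 difference −5.24, SE 0.27, adjusted p = 3.86e-06, n = 2 arrays per group, 95% interval −5.83 to −4.64). Dkk3 encodes a divergent member of the Dickkopf family of secreted proteins. Its signal was 262 and 562 on the Runx1 iTG and 453 and 215 on the WT hair germ arrays, against 9629.9 and 12379.9 on the Runx1 iTG and 8305 and 10710.4 on the WT bulge arrays. The hair germ mean was 29.3-fold lower, again without overlap (log2 difference −4.87, SE 0.30, adjusted p = 9.24e-06).

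Wif1, the WNT inhibitory factor, binds WNT ligands outside the cell. It stood at 95.2 and 378 on the Runx1 iTG and 139 and 61.7 on the WT hair germ arrays, against 2022 and 1942 on the Runx1 iTG and 596 and 243 on the WT bulge arrays. The Runx1 iTG bulge arrays were the highest, and replicate 2 of Runx1 iTG hair germ exceeded replicate 2 of WT bulge, so the sorts overlapped. The hair germ mean was 6.55-fold lower (log2 difference −2.71, SE 0.48, adjusted p = 0.00345). Apcdd1, a membrane protein that binds WNTs and LRP5 and is mutated in a form of human hair loss, went the other way. Its signal was 6335 and 11318 on the Runx1 iTG and 12847 and 9749 on the WT hair germ arrays, against 3524 and 2063 on the Runx1 iTG and 2990.2 and 2860.5 on the WT bulge arrays. All 4 hair germ arrays lay above all 4 bulge arrays, a 3.47-fold higher mean (log2 difference 1.79, SE 0.23, adjusted p = 0.00062). The probe set that stands for Apcdd1 is of a kind that can also bind related transcripts, and the 5 other probe sets of the gene were higher by 2.09 to 2.81.

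The remaining antagonists were dim. Sfrp5 had 23.7 and 40.1 on the Runx1 iTG and 17.7 and 33.2 on the WT hair germ arrays, against 145 and 53 on the Runx1 iTG and 38.8 and 94.9 on the WT bulge arrays, with a hair germ mean below background. The bulge mean was at least 2.34-fold brighter (adjusted p = 0.133). Sfrp4 and Dkk4, like Sfrp5, passed the background limit on some arrays only. Dkk1, Dkk2 and Sfrp2 were below it on all 8, so no fold is given for them.

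Receptors were the role with the most genes past the threshold. Of 12, 7 fell and Fzd6 rose. Fzd2 is a Frizzled receptor known for both beta-catenin and non-canonical signalling. It stood at 675 and 656 on the Runx1 iTG and 1232 and 692 on the WT hair germ arrays, against 8435 and 8549.7 on the Runx1 iTG and 11872 and 13526 on the WT bulge arrays. The sorts lay wide apart, with a 13.2-fold lower mean in the hair germ sort (log2 difference −3.73, SE 0.19, adjusted p = 4.16e-06). Fzd9, another Frizzled receptor, had 72.8 and 93.2 on the Runx1 iTG and 154 and 90.8 on the WT hair germ arrays, against 1218 and 1244 on the Runx1 iTG and 807 and 1024 on the WT bulge arrays. Its mean was 10.7-fold lower in the hair germ sort (log2 difference −3.42, SE 0.27, adjusted p = 3.12e-05), with the hair germ arrays still above background.

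Fzd1 had 2008 and 1580.3 on the Runx1 iTG and 1076 and 1218 on the WT hair germ arrays, against 3710.0 and 5902 on the Runx1 iTG and 3606 and 3505 on the WT bulge arrays. In both sorts the Runx1 iTG arrays were above the WT arrays, and the hair germ mean was 2.86-fold lower (log2 difference −1.51, SE 0.19, adjusted p = 0.00044). Fzd7 had 4506 and 5797 on the Runx1 iTG and 8438 and 6194 on the WT hair germ arrays, against 10514 and 9509 on the Runx1 iTG and 11325 and 11072 on the WT bulge arrays, without overlap between sorts (1.74-fold lower, log2 difference −0.80, SE 0.16, adjusted p = 0.00725). Fzd3, a receptor known in mouse for planar polarity, had 936 and 744 on the Runx1 iTG and 691 and 799 on the WT hair germ arrays, against 1235 and 1592 on the Runx1 iTG and 1513 and 1809 on the WT bulge arrays (1.93-fold lower, log2 difference −0.95, SE 0.18, adjusted p = 0.00567). Both Fzd3 and Fzd7 kept the hair germ arrays under every bulge array, although by less than a doubling.

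Fzd6, which patterns hair orientation in mouse skin, was the one Frizzled gene past the threshold with a higher signal in the hair germ sort. Its signal was 3439 and 3266 on the Runx1 iTG and 4478 and 3491 on the WT hair germ arrays, against 2298 and 2392 on the Runx1 iTG and 2936 and 2349 on the WT bulge arrays. The hair germ arrays were all above the bulge arrays but by only 1.47-fold (log2 difference 0.55, SE 0.16, adjusted p = 0.0357). Another probe set of Fzd6 differed by −0.03 and the remaining one by 0.53 (adjusted p = 0.0836 over all probe sets). Fzd6 lost its call when any 1 of 7 arrays was left out, all but replicate 1 of WT bulge, with an adjusted p between 0.0508 and 0.12, and with the mean of its probe sets (0.35, adjusted p = 0.274). It was also lost under quantile normalization (0.42, adjusted p = 0.0913), without further scaling (0.0504), without the intensity trend (0.141) and on the postnatal day 20 arrays (0.145).

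The co-receptors Lrp5 and Lrp6, which pair with Frizzled proteins, fell as well. Lrp5 had 828 and 1126 on the Runx1 iTG and 1104 and 1389 on the WT hair germ arrays, against 1719.9 and 3908 on the Runx1 iTG and 2555 and 2417 on the WT bulge arrays, without overlap (2.32-fold lower, log2 difference −1.21, SE 0.25, adjusted p = 0.00869). Lrp6 had 1797 and 1839 on the Runx1 iTG and 3235 and 1890.4 on the WT hair germ arrays, against 2977 and 3944 on the Runx1 iTG and 4985 and 3484 on the WT bulge arrays. Replicate 1 of WT hair germ lay above replicate 1 of Runx1 iTG bulge, so the sorts overlapped (1.78-fold lower, log2 difference −0.83, SE 0.21, adjusted p = 0.0224). Lrp6 lost its call without either Runx1 iTG hair germ array, without replicate 2 of Runx1 iTG bulge, without replicate 2 of WT hair germ or without replicate 1 of WT bulge, with an adjusted p between 0.0608 and 0.0901. The other 4 receptors did not pass. Fzd4 differed by 0.84 (95% interval −0.10 to 1.78), Fzd5 by −0.30 (−0.91 to 0.30), Fzd8 by 0.04 (−0.80 to 0.89) and Fzd10 by 1.07 (0.00 to 2.14). The 2 other probe sets of Fzd4 differed by 1.43 and 2.53, neither past the threshold over all probe sets.

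The 250 bases before an annotated start are shown for 3 receptor genes that fell together and for Axin2, a known target of the pathway. The sequences come from RefSeq (build GRCm38.p6, 5′ to 3′ on the gene's strand). They were searched for the TCF/LEF core CTTTGA and the RUNX core TGTGGT on both strands, and a match is in capitals. Fzd1 (chr5:4758217-4758466, minus strand), Fzd7 (chr1:59481897-59482146, plus strand), Fzd9 (chr5:135251048-135251297, minus strand) and Axin2 (chr11:108920099-108920348, plus strand) read as follows.
Fzd1: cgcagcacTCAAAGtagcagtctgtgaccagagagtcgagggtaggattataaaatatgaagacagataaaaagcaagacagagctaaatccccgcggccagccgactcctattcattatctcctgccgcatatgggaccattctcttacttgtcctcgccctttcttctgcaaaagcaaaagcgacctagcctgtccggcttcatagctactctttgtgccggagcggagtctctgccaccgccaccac
Fzd7: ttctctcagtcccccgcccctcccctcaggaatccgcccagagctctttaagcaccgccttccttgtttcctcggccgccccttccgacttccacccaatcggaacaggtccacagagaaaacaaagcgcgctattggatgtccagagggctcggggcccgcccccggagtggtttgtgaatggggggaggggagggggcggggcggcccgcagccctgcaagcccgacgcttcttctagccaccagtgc
Fzd9: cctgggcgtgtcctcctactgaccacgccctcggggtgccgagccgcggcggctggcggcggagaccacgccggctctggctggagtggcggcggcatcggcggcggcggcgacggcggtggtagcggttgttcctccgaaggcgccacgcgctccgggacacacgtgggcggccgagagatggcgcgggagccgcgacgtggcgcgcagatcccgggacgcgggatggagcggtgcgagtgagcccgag
Axin2: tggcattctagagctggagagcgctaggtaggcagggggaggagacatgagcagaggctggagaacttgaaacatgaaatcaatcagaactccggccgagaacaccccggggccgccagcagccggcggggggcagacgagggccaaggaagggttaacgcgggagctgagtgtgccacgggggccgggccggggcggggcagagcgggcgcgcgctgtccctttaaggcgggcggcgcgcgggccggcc
Fzd1 held 1 TCF/LEF core, in the reverse orientation TCAAAG, and the other 3 windows held none of either. The Axin2 window lies inside the gene, which spans chr11:108917828-108950783, so the bases before the gene's first position were not searched. G and C made up 51.2% of the Fzd1 window, 65.2% of Fzd7, 76.4% of Fzd9 and 69.2% of Axin2. Promoter entries were found for 32 of the WNT genes, 40 entries in all. Of these 40, 5 held a TCF/LEF core and 2 a RUNX core, while 13.8% and 14.0% of all 32851 RefSeq mouse windows of this length held them. A match describes letters only and is no evidence of binding.

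**Figure D3:**
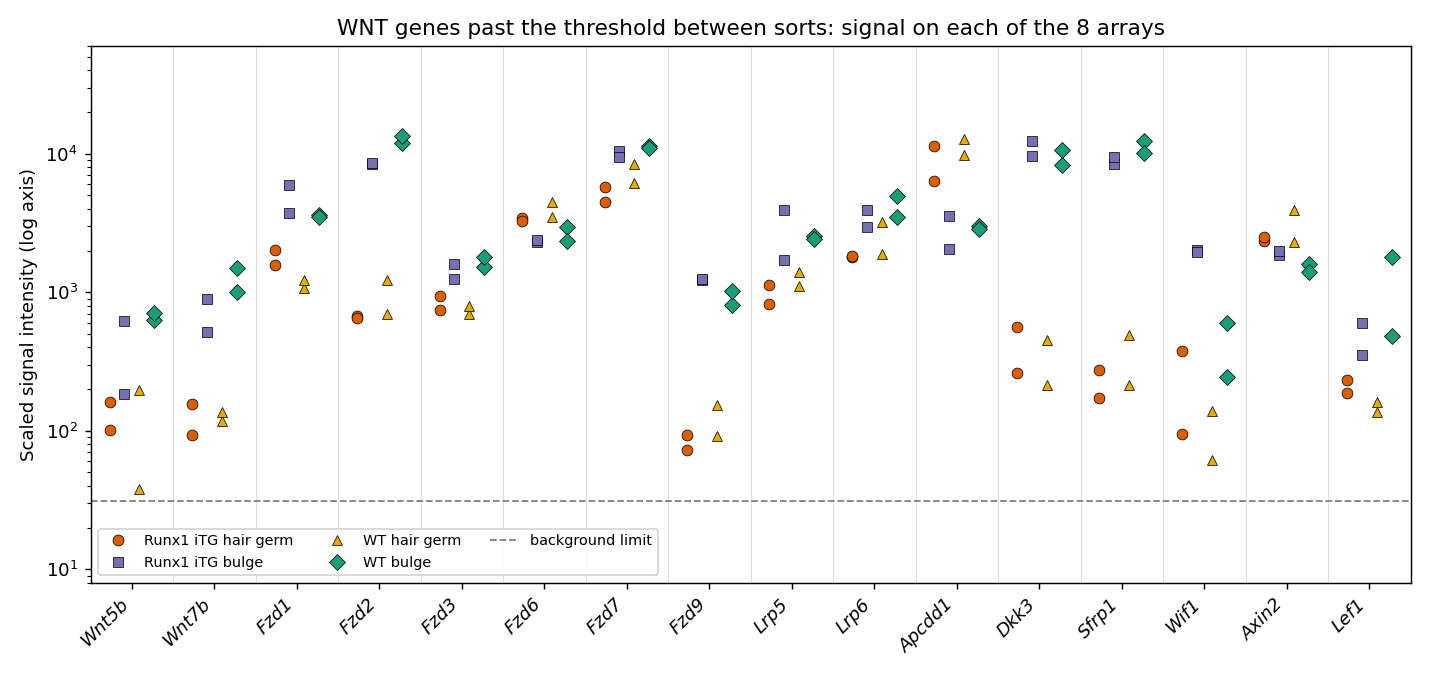
Scaled signal (log axis) of the 16 WNT genes past the threshold between sorts, one point per array, in the order Runx1 iTG hair germ, Runx1 iTG bulge, WT hair germ and WT bulge within each gene; the dashed line is the background limit of 31.1. Sfrp1, Dkk3, Fzd2, Fzd9 and Wnt7b show the widest gap between sorts, and Apcdd1, Axin2 and Fzd6 are higher in the hair germ sort.

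Ligand genes mostly did not differ between sorts beyond the spread of the arrays. Of 19, 2 fell and 0 rose. Wnt7b, a ligand made by epithelia, had 93.1 and 157 on the Runx1 iTG and 117 and 136 on the WT hair germ arrays, against 888 and 514 on the Runx1 iTG and 1494 and 1009 on the WT bulge arrays. All hair germ arrays were below all bulge arrays, with a 7.38-fold lower mean (log2 difference −2.88, SE 0.30, adjusted p = 0.000169). Wnt5b, a ligand known mainly for signalling outside the beta-catenin branch, had 160.1 and 101 on the Runx1 iTG and 196 and 38.2 on the WT hair germ arrays, against 617 and 183 on the Runx1 iTG and 627 and 703 on the WT bulge arrays. Replicate 2 of Runx1 iTG bulge stood within the range of the hair germ arrays, so the sorts overlapped (4.5-fold lower, log2 difference −2.17, SE 0.55, adjusted p = 0.0216). Wnt5b lost its call without either Runx1 iTG hair germ array, without replicate 1 of Runx1 iTG bulge, without replicate 2 of WT hair germ or without either WT bulge array, with an adjusted p between 0.0516 and 0.0952. Its second probe set differed by −1.23 (adjusted p = 0.068 over all probe sets).

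Wnt10b, a ligand of the beta-catenin branch known in hair growth, had 85.1 and 259 on the Runx1 iTG and 82.6 and 99.1 on the WT hair germ arrays, against 90 and 103 on the Runx1 iTG and 11.8 and 21.1 on the WT bulge arrays. It was low on the WT bulge arrays alone, and its averaged difference of 1.57 did not pass (adjusted p = 0.0581). Wnt8b had 2.42 and 16.3 on the Runx1 iTG and 30.2 and 28.4 on the WT hair germ arrays, against 67.4 and 149 on the Runx1 iTG and 25.6 and 78.4 on the WT bulge arrays. Its hair germ means were below background, so the bulge mean was at least 2.15-fold brighter (adjusted p = 0.0563). The 2 other probe sets of Wnt8b had group means below background. Wnt4, whose signal exceeded background by a wide margin on all arrays, differed between sorts by 0.01 (95% interval −0.48 to 0.50). Of the other 14 ligands, 10 had means above background in both sorts and ranged from −0.89 (Wnt3) to 0.91 (Wnt16). The bulge mean of Wnt9a was at least 1.65-fold brighter (adjusted p = 0.269) and the hair germ mean of Wnt8a at least 1.34-fold brighter (0.302), each against a sort below background. Wnt1 and Wnt2 were below it in both sorts.

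Genes for ligand processing and for R-spondins did not pass. Wls, which carries WNT proteins to the cell surface, had 1069.5 and 1434 on the Runx1 iTG and 1453 and 1465 on the WT hair germ arrays, against 1848 and 1647 on the Runx1 iTG and 1734 and 1112 on the WT bulge arrays (log2 difference −0.21, 95% interval −0.65 to 0.22). The 3 other probe sets of Wls differed by −0.21, −0.35 and −2.37, and the one at −2.37 passed over all probe sets (adjusted p = 0.0182) with group means all below background. Porcn, which attaches the lipid, differed by −0.57 (−1.15 to 0.02). The R-spondin genes, whose products raise WNT receptor levels through LGR receptors, had signals between 4.9 and 84.6 over all 8 arrays. Rspo2, for example, had 24.9 and 84.6 on the Runx1 iTG and 56 and 59.6 on the WT hair germ arrays, against 19 and 10.5 on the Runx1 iTG and 54.3 and 41.8 on the WT bulge arrays, so that arrays of one group lay on both sides of the background limit. The ubiquitin ligase genes Znrf3 and Rnf43, which remove Frizzled receptors from the surface, differed by −0.19 (−0.71 to 0.34) and 0.41 (−0.20 to 1.02). Znrf3 had 417 and 550.1 on the Runx1 iTG and 677 and 524 on the WT hair germ arrays, against 699.8 and 419 on the Runx1 iTG and 688 and 674 on the WT bulge arrays, with overlapping sorts.

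Inside the cell, Axin2 rose and Lef1 fell in the hair germ sort, while beta-catenin, Apc and Axin1 did not pass. Axin2, a destruction complex scaffold that the pathway itself induces, had 2340.2 and 2514 on the Runx1 iTG and 3942 and 2306 on the WT hair germ arrays, against 1849 and 1991 on the Runx1 iTG and 1590.3 and 1394 on the WT bulge arrays. The hair germ arrays were all above the bulge arrays, with a 1.6-fold higher mean (log2 difference 0.68, SE 0.19, adjusted p = 0.0345), and the second probe set was higher by 0.74. Axin2 lost its call when any 1 of 7 arrays was left out, all but replicate 2 of WT hair germ, with an adjusted p between 0.0691 and 0.118. It was also lost under quantile normalization (0.0802), without the intensity trend (0.132) and on the postnatal day 20 arrays (0.179). Lef1, a nuclear partner of beta-catenin, had 188 and 232 on the Runx1 iTG and 161 and 138 on the WT hair germ arrays, against 354 and 603 on the Runx1 iTG and 1796 and 481 on the WT bulge arrays. Replicate 1 of WT bulge stood far above the rest, and no hair germ array reached the lowest bulge array (3.72-fold lower, log2 difference −1.89, SE 0.40, adjusted p = 0.00908). Without replicate 2 of Runx1 iTG bulge the adjusted p of Lef1 was 0.0516. Its second probe set differed by −3.35.

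Ctnnb1, which encodes beta-catenin, had 13162 and 14076 on the Runx1 iTG and 15943 and 14787 on the WT hair germ arrays, against 18633 and 15802 on the Runx1 iTG and 18396 and 19332 on the WT bulge arrays. Replicate 1 of WT hair germ lay just above replicate 2 of Runx1 iTG bulge, and the 1.24-fold lower hair germ mean did not pass over all genes (log2 difference −0.32, SE 0.14, adjusted p = 0.16). The 2 other probe sets of Ctnnb1 differed by −0.39 (adjusted p = 0.142 over all probe sets) and −0.73 (0.0109), so that the dimmest of the 3 passed. Apc, the large scaffold of the destruction complex, had 1344 and 1330.3 on the Runx1 iTG and 1458 and 1586 on the WT hair germ arrays, against 1613 and 1884 on the Runx1 iTG and 1304 and 1623 on the WT bulge arrays, with overlapping sorts (log2 difference −0.16, 95% interval −0.52 to 0.20). Axin1 differed by −0.17 (−0.55 to 0.20).

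Most calls were shared by separate probe sets of a gene. Of the 16 genes past the threshold, 13 had further probe sets, 26 in all. Of these 26, 25 had the sign of the probe set that stands for the gene and 22 of those passed over all probe sets. The exception in sign was the third probe set of Fzd6. Fzd9, Lrp5 and Wif1 had 1 probe set each. For Sfrp1, the 4 others differed by −5.17 to −5.61 on the log2 scale, and for Fzd2 the 2 others by −3.90 and −4.07.

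**Figure D4:**
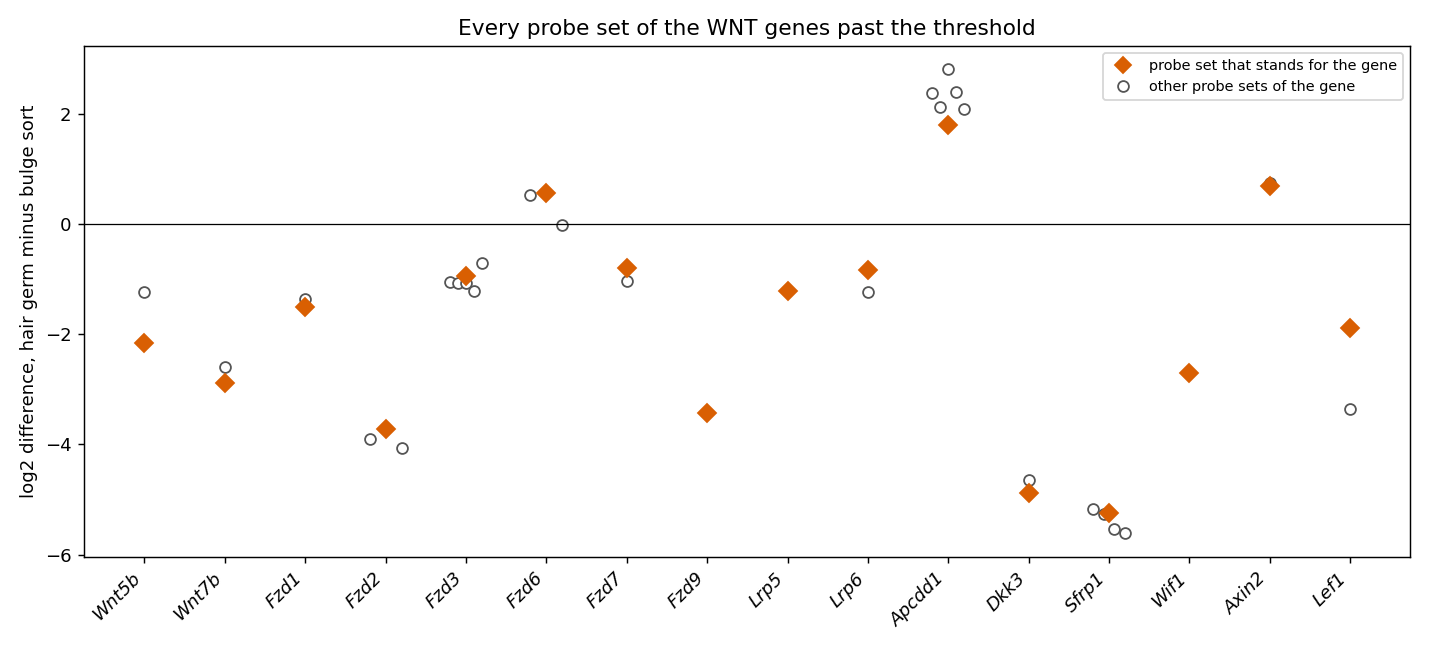
Log2 difference between the hair germ and the bulge sort for every probe set of the 16 WNT genes past the threshold; diamonds are the probe sets that stand for the genes and open circles the others. Of the 26 open circles, 25 have the sign of the diamond of their gene, the exception being one of Fzd6 at −0.03.

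The sort difference was then taken within each genotype. In Runx1 iTG mice, 11 of 53 WNT genes passed, 10 lower (18.9%, against 5.26% of all genes) and 1 higher (1.89%, against 4.5% of all genes). In WT mice, 9 passed, 8 lower (15.1%, against 3.79% of all genes) and 1 higher (1.89%, against 3.14% of all genes). The gene that rose in each genotype was Apcdd1, by 1.65 in Runx1 iTG and 1.94 in WT mice. In both genotypes this call was lost without some single arrays. Sfrp1, Dkk3, Fzd2, Fzd9, Wnt7b and Fzd1 fell in both. With Apcdd1 these made 7 shared calls, 63.6% of those in Runx1 iTG and 77.8% of those in WT mice, and over all genes the shares were 52% and 73.2%. Sfrp1 differed by −5.37 in Runx1 iTG and −5.11 in WT mice, Dkk3 by −4.83 and −4.92, Fzd2 by −3.67 and −3.78, and Fzd9 by −3.90 and −2.94.

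Wif1, Fzd7, Lrp5 and Wnt8b passed in Runx1 iTG mice. These calls, and those of Lef1 and Fzd3 in WT mice below, were each lost without some single arrays. Wif1 differed by −3.38 in Runx1 iTG mice (adjusted p = 0.0122) and by −2.04 in WT mice (0.111). Wnt8b was at least 3.22-fold brighter in the bulge than in the hair germ sort of Runx1 iTG mice (adjusted p = 0.0389), while its other probe sets had group means below background. Lef1 and Fzd3 passed in WT mice, where Lef1 differed by −2.64 (adjusted p = 0.0217) against −1.15 in Runx1 iTG mice (0.267). None of these differences between genotypes passed when tested directly. In the interaction of sort and genotype 0 of 53 WNT genes passed in limma, as did 0.0% of all genes, and 1 WNT gene, Wnt8b, reached an unadjusted p under 0.05, against 4.61% of all genes. The interaction was −1.34 for Wif1 (95% interval −3.48 to 0.79), 1.50 for Lef1 (−0.29 to 3.28), 1.39 for Wnt2b (−0.06 to 2.84) and −0.96 for Fzd9 (−2.16 to 0.25).

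Of the calls made within a genotype, 4 in Runx1 iTG and 5 in WT mice held whichever array was left out. In Runx1 iTG mice the count fell to 6 without replicate 1 of Runx1 iTG hair germ, to 7 without replicate 1 and to 5 without replicate 2 of Runx1 iTG bulge. In WT mice it fell to 5 without replicate 1 of WT bulge, and to 6 without replicate 2 of WT bulge or replicate 1 of WT hair germ. Across the 53 genes, which are not independent replicates, the sort differences of the 2 genotypes had a Pearson correlation of 0.80, against 0.59 over all genes. Their sign was the same for 43 (81.1%), against 70.5% of all genes.

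Genes that act next to these on the same pathway were read from lists of genes outside the 53. The list of genes known to respond to WNT signalling also holds some of the 53. Of 17 measured receptor complex and surface regulators, 5 fell (29.4%, against 9.11% of all genes) and 2 rose (11.8%, against 9.17%) in the hair germ sort with genotypes averaged. Lgr5, an R-spondin receptor and stem cell marker, had 346 and 249.9 on the Runx1 iTG and 521 and 229 on the WT hair germ arrays, against 7056 and 7456 on the Runx1 iTG and 9956 and 8474 on the WT bulge arrays (log2 difference −4.68, SE 0.25, adjusted p = 5.71e-06). Shisa2, which holds Frizzled proteins back inside the cell, had 108 and 139 on the Runx1 iTG and 434 and 141 on the WT hair germ arrays, against 5572 and 5289 on the Runx1 iTG and 9174 and 9520.3 on the WT bulge arrays (log2 difference −5.36, SE 0.31, adjusted p = 7.13e-06). Both were low on all hair germ arrays and high on all bulge arrays. Dkkl1 (−2.18), and the R-spondin receptors Lgr4 (−1.09) and Lgr6 (−1.06), also fell. In the cell type lists used here, Lgr5 is also a bulge marker and Lgr6 a sebaceous and upper follicle marker. The glypican genes Gpc3 (1.54) and Gpc4 (0.54) rose. The list median was −0.37, against −0.09 over all genes.

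Of 32 measured cytoplasmic and nuclear effectors, 10 fell (31.2%, against 9.11% of all genes) and 2 rose (6.25%, against 9.17%). The DNA-binding factors Tcf7l1 (−3.19, adjusted p = 0.000473) and Tcf7l2 (−1.89, 4.56e-05) fell. Tcf7l1 had 96 and 189 on the Runx1 iTG and 204 and 60.9 on the WT hair germ arrays, against 1815 and 1188 on the Runx1 iTG and 885 and 816 on the WT bulge arrays, and it is also a bulge marker in the lists used here. The inhibitors Nkd1 (−2.37) and Ctnnbip1 (−1.67), the co-repressors Tle2 (−1.47), Tle4 (−1.38) and Ctbp2 (−0.94), Sox9 (−1.72) and the beta-catenin co-activators Bcl9l (−0.53) and Pygo2 (−0.64) fell too. Sox9, like Tcf7l1, is also a bulge marker in those lists. The 2 that rose were Amer1 (0.89), a destruction complex regulator, and the co-repressor Tle3 (0.80). Kinase and Dishevelled genes did not pass, with Gsk3b at 0.05 and Dvl2 at −0.27. The list median was −0.36.

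Of 19 measured genes known to respond to WNT signalling, 4 rose (21.1%, against 9.17% of all genes) and 3 fell (15.8%, against 9.11%). The 4 were Apcdd1 and Axin2, described above, Bmp4 (2.79, adjusted p = 0.00101) and Myc (0.93, 0.003). The 3 were Lef1, Lgr5 and Nkd1. Apcdd1, Axin2 and Lef1 are themselves among the WNT genes chosen by symbol. Of the 12 measured genes of this list outside that choice, 2 rose (Bmp4 and Myc) and 2 fell (Lgr5 and Nkd1). Lgr5 was also counted above with the surface regulators and Nkd1 with the effectors, so these counts are not independent. Bmp4, a bone morphogenetic protein, had 502 and 859 on the Runx1 iTG and 409 and 617 on the WT hair germ arrays, against 127 and 53.6 on the Runx1 iTG and 60.6 and 114 on the WT bulge arrays, with all hair germ arrays above all bulge arrays. Nkd1, an inhibitor of Dishevelled that the pathway induces, had 149 and 111 on the Runx1 iTG and 118 and 135 on the WT hair germ arrays, against 451 and 521 on the Runx1 iTG and 873 and 930.0 on the WT bulge arrays, the reverse order.

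The comparison the study was built for set Runx1 iTG against WT cells within each sort. No WNT gene passed. In the hair germ sort 0 of 53 passed in limma, against 0.0275% of all genes, and 5 reached an unadjusted p under 0.05 (6.78% of all genes did). In the bulge sort 0 passed, against 0.022% of all genes, and 4 reached the unadjusted level (5.96% of all genes). With both sorts averaged 0 passed, against 0.0495% of all genes, and 9 reached it (8.0% of all genes). The count was 0 in every alternative run for these 3 comparisons.

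The median log2 difference of the 53 genes, Runx1 iTG minus WT, was −0.28 in the hair germ sort and −0.15 in the bulge sort, against 0.03 and 0.02 over all genes. With genes below background at their bound these medians were −0.19 and 0. Lower in Runx1 iTG by fitted value were 37 of 53 in the hair germ sort and 29 of 53 in the bulge sort. Of the 53, 10 in the hair germ sort and 7 in the bulge sort had means below background in both genotypes. For such genes the sign describes no measured level. Groups of 2 arrays did not overlap for 20 of 53 genes in the hair germ sort and 22 in the bulge sort, against 35.7% and 33.8% of all genes. With 2 arrays per group, the median standard error of a difference was 0.515 on the log2 scale over all genes.

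**Figure D5:**
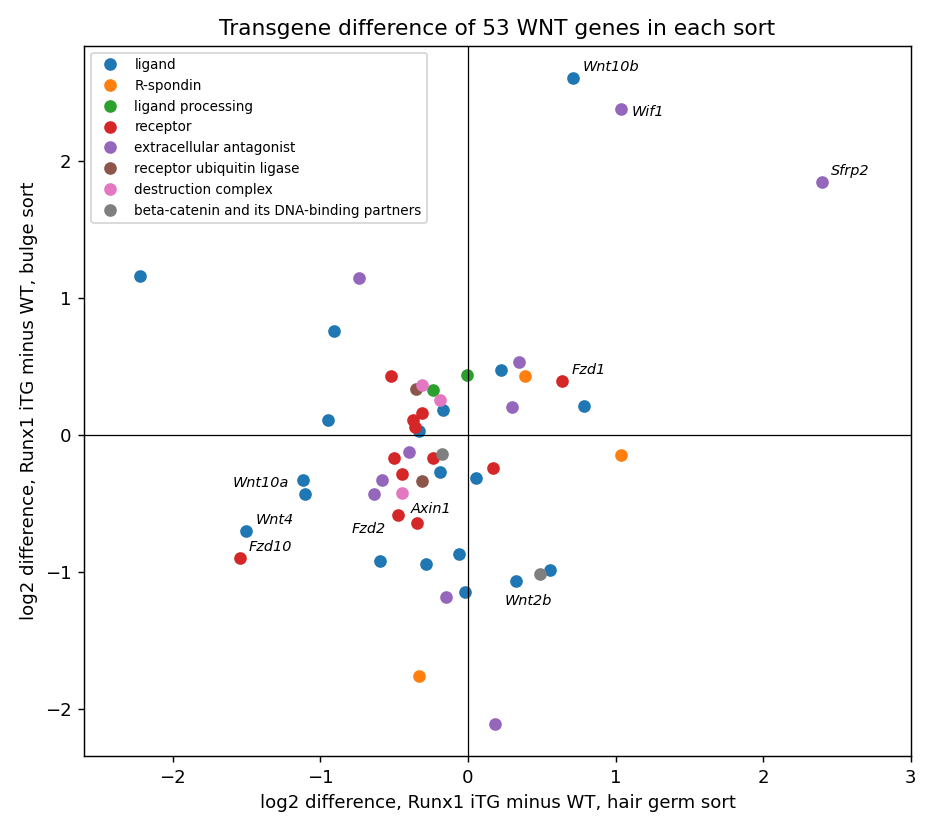
Log2 difference in signal, Runx1 iTG minus WT, of the 53 WNT genes in the hair germ sort (horizontal) and in the bulge sort (vertical), coloured by role; genes with an unadjusted p under 0.05 in either sort or in their average are named. Wnt4 lies lower in both sorts and Wif1 and Wnt10b lie highest in the bulge sort, none of them past the adjusted threshold.

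Wnt4, a ligand of epithelium, had the smallest p of the WNT genes. Its signal was 732 and 752 on the Runx1 iTG hair germ arrays, against 2264 and 1952 on the WT hair germ arrays. In the bulge sort it was 1340.5 and 709.6 on the Runx1 iTG arrays, against 1754 and 1432 on the WT arrays. All 4 Runx1 iTG arrays were below all 4 WT arrays, one of 4 WNT genes without overlap in this comparison (7.55% of 53, against 2.54% of all genes). The others were Axin1, Wnt3a and Sfrp2, and Sfrp2 lay below background on all 8 arrays, so its order describes no measured level. The difference of Wnt4 was −1.50 in the hair germ sort (95% interval −2.20 to −0.81, unadjusted p = 0.000715, adjusted p = 0.217) and −0.70 in the bulge sort (adjusted p = 0.834). Across the alternatives the adjusted p of Wnt4 in the hair germ sort lay between 0.145 and 0.856. Without replicate 2 of Runx1 iTG bulge, the array of postnatal day 21, the bulge difference of Wnt4 was −0.24, and without replicate 1 of Runx1 iTG bulge it was −1.16. Its second probe set differed by −1.38 in the hair germ sort and −0.03 in the bulge sort.

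In the bulge sort the largest positive fitted differences were those of Wnt10b and Wif1. Wif1 had 2022 and 1942 on the Runx1 iTG bulge arrays, against 596 and 243 on the WT bulge arrays (log2 difference 2.38, SE 0.67, adjusted p = 0.683). Wnt10b had 90 and 103 on the Runx1 iTG bulge arrays, against 11.8 and 21.1 on the WT bulge arrays, which lay below background. The Runx1 iTG bulge mean of Wnt10b was at least 3.09-fold brighter (adjusted p = 0.669). In the hair germ sort Wif1 differed by 1.04 and Wnt10b by 0.71, with overlapping arrays for both. Neither gene passed, and the 95% interval of Wif1 in the bulge sort was wide, 0.88 to 3.89.

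Wnt10a, a ligand in which human mutations disturb hair and teeth, had 319.8 and 316 on the Runx1 iTG hair germ arrays, against 858 and 544 on the WT hair germ arrays (log2 difference −1.11, SE 0.46, adjusted p = 0.692). Fzd1 was higher by 0.64 in Runx1 iTG than in WT hair germ (adjusted p = 0.685) and by 0.40 in the bulge sort (0.921). Wnt2b had 124 and 135 on the Runx1 iTG bulge arrays, against 302 and 243 on the WT bulge arrays (log2 difference −1.06, SE 0.46, adjusted p = 0.808). Sfrp2 was below background on all 8 arrays, so its unadjusted p of 0.0445 in the hair germ sort describes values with no measured level.

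Genes with wide sort differences, and those of the destruction complex, did not pass between genotypes either. Sfrp1 differed by −0.58 in the hair germ and −0.32 in the bulge sort (Runx1 iTG minus WT), Dkk3 by 0.30 and 0.21, Fzd2 by −0.47 and −0.58, Axin2 by −0.31 and 0.37, and Ctnnb1 by −0.17 and −0.14. The 95% intervals were −1.17 to 0.52 for Sfrp1, −0.72 to 1.15 for Dkk3 and −0.58 to 0.31 for Ctnnb1 in the bulge sort.

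Outside the 53 genes, the co-repressor Tle4 fell in Runx1 iTG hair germ. It had 229 and 283 on the Runx1 iTG hair germ arrays, against 1100.0 and 1187 on the WT hair germ arrays (log2 difference −2.17, SE 0.25, adjusted p = 0.0395). In the bulge sort it had 1221 and 1068 on the Runx1 iTG arrays, against 1808 and 1663 on the WT arrays (log2 difference −0.60, SE 0.25, adjusted p = 0.788). It alone of 32 effectors passed in the hair germ sort (3.12%, against 0.0275% of all genes). That share rests on 1 gene and says nothing of the list as a whole. Whether the call of Tle4 holds under the alternatives was not tested. Of 17 surface regulators 0 passed in limma in either sort, and an unadjusted p under 0.05 was reached by 4 in the hair germ sort (23.5%, against 6.78% of all genes) and 1 in the bulge sort (5.88%, against 5.96%). Notum, a secreted enzyme that removes the lipid from WNT proteins, had 53.4 and 62.6 on the Runx1 iTG hair germ arrays and 66.7 and 42.2 on the Runx1 iTG bulge arrays, against 7.96 and 7.6 on the WT hair germ arrays and 4.6 and 11.5 on the WT bulge arrays. All 4 WT arrays were below background and all 4 Runx1 iTG arrays above it, and the averaged difference did not pass (adjusted p = 0.177).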

How the data were processed

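Probe set intensity was used as the authors deposited it, linear and summarised to 45101 probe sets on Affymetrix mouse arrays. RNA input was 5 ng, amplified and biotin-labelled with NuGEN kits, per the labels' protocols. The summarisation program is not named in the labels or headers. From the values, the mean of an array without its top and bottom 2% was 500.

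Arrays were brought to one 75th percentile, values under 2.42 were set to that floor (3.48% of values), and log2 was taken. The probe set with the highest mean over 8 arrays stood for a gene. The background limit is the 95th percentile of 27 bacterial control probe sets. Where the dimmer group lies below it, "at least N-fold" sets the brighter mean against 31.1.

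Group means were estimated from the 8 arrays together in limma 3.58.1 (R 4.3.3, intensity trend, 9.87 total degrees of freedom) with Benjamini-Hochberg adjustment over 18193 genes. The fit was checked on simulated data. All adjusted p-values come from it or, for single probe sets, from the same fit over 45037 probe sets. The samples are labelled biological replicates, and whether both sorts of one number share mice is not stated. Replicate number goes with sex, so the spread between arrays includes sex.

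WNT genes with values for every array are those past the threshold, those with the 4 smallest p where fewer passed, and a few set by role. The genes, lists and tests were chosen with earlier results of these data known. Alternatives changed the scaling, floor, trend, probe set rule, dim gene filter, blocks and the arrays included.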

Additional observations from a re-analysis of the deposited data

How the results depend on the processing

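No WNT gene past the threshold reversed its direction under any alternative run. Of the 16 genes called between sorts with genotypes averaged, 8 (Sfrp1, Dkk3, Fzd2, Fzd9, Wnt7b, Fzd1, Wif1 and Apcdd1) passed under every one. Without the intensity trend 9 passed with genotypes averaged, 5 in Runx1 iTG and 5 in WT mice, and Axin2, Fzd6, Fzd7, Lef1, Lrp5, Lrp6 and Wnt5b lost the averaged call (adjusted p 0.051 to 0.141). On the arrays of postnatal day 20 the counts were 10 averaged, 5 in Runx1 iTG and 7 in WT mice. That leaves 1 array in each Runx1 iTG group, so the spread there comes from the WT groups alone. The arrays left out were also the Runx1 iTG arrays with high Xist signal, so postnatal day and sex cannot be told apart in this alternative. A fit of each genotype by itself gave 5 in Runx1 iTG and 7 in WT mice. Leaving out 1 array at a time gave 12 to 15 with genotypes averaged, 5 to 9 in Runx1 iTG and 5 to 9 in WT mice, with the lone array of a group assumed to vary like the other groups. Between 15 and 19 passed with genotypes averaged under quantile normalization, no further scaling, an offset of 16, no dim genes or the mean of probe sets. The cause of these shifts was not tested, apart from fewer arrays where arrays were left out.

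Same-numbered samples did not deviate together, with correlations of 0.082, 0.027, −0.027 and 0.076 for the 4 pairs of groups, so the numbers were not taken as pairing. With replicate number as a block, which here stands for sex too, 18, 11 and 10 WNT genes passed between sorts (averaged, Runx1 iTG, WT), and 0 passed between genotypes or in the interaction. With each number taken as an animal within its genotype, 17, 12 and 12 passed. The dim gene filter dropped genes under the 30th percentile of mean log2 signal, 13 WNT genes among them. It did not use the background limit.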

Other observations

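Fzd10, a Frizzled receptor gene that did not pass between sorts, had probe sets of opposite sign with group means above background. They differed by 1.07 and −0.25 (hair germ minus bulge, genotypes averaged), neither past the threshold.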
